A study of Mus musculus with 4 samples.

Results

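Wwox, Lrmda, Rad51b, Fhit, Immp2l, Macrod2 and Magi2 are 7 very large mouse genes, several of which are known from common fragile sites of human chromosomes. A region of differential methylation was counted for a gene when it shared at least 1 bp with its RefSeq gene body in mm10. This gave 562 regions, out of 101350 that the authors' deposited table lists. The genes were chosen by their size and fragile-site character together with the number of listed regions measured in Wwox, Lrmda and Rad51b, from this same contrast. The counts, levels and positions below are therefore a description and carry no test.

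The data come from whole-genome bisulfite sequencing of dissected somatosensory cortices from mice 2.5 months old. In this assay unmethylated cytosines are read as thymines, and the share read as cytosine is the methylation level. The groups were a conditional knockout labelled Nsd1Nex-cKO (cKO, n = 2 libraries), in which the Nex (Neurod6) driver acts in excitatory cortical neurons, and a control labelled Nsd1fl/+ (n = 2 libraries), which carries 1 floxed allele. The tissue holds other cells as well, in which this driver is not active, and the labels do not say whether libraries come from separate animals. The table lists called regions only, with 1 mean level per group and no value per library. Depth and the spread over libraries are therefore unknown for every value below. No marker of the tissue could be checked in it.

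NSD1 methylates histone H3 at lysine 36, a mark that recruits DNA methyltransferases to chromatin. In mammals most methylation lies at CG dinucleotides. Mature neurons also carry methylation outside CG, which is divided into the CHH and CHG contexts, H being any base but G. Very large genes at common fragile sites consist mostly of introns, tend to replicate late and are prone to breaks and deletions under replication stress.

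The 7 genes span 8.53 Mb and differ in function. Wwox encodes an oxidoreductase with WW domains, Fhit a diadenosine triphosphate hydrolase and Rad51b a protein of homologous recombination. Lrmda encodes a leucine-rich protein of melanocyte differentiation, Immp2l a subunit of the inner mitochondrial membrane peptidase and Macrod2 a hydrolase that removes ADP-ribose. Magi2 encodes a synaptic scaffold protein with PDZ and WW domains.

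None of the 10 promoter windows examined held a listed region. RefSeq promoter windows on GRCm38.p6, the assembly of mm10, were at hand for 6 of the 7 genes, all but Wwox, and run from 250 bases before to 50 bases after a start. The 2 windows of Macrod2 (from 140395180 and 140395185) overlap almost fully, and those of Rad51b (from 79297032 and 79297101) in large part. Of all 32851 promoter windows, 2.74% held a listed region, so finding none in 10 tells little about these genes. The 250 bases before the start are shown for 4 windows, with each CG dinucleotide in capitals, because they set CpG-rich and CpG-poor starts beside the bodies described below. They lie on the plus strand at chr14:22019462-22019711, chr2:140395180-140395429, chr5:19226796-19227045 and chr5:19907268-19907517.
Lrmda: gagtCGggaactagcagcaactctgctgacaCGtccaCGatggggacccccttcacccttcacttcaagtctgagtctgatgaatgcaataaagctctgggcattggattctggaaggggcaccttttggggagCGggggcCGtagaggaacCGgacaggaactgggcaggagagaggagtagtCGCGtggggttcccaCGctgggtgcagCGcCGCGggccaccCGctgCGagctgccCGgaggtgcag
Macrod2: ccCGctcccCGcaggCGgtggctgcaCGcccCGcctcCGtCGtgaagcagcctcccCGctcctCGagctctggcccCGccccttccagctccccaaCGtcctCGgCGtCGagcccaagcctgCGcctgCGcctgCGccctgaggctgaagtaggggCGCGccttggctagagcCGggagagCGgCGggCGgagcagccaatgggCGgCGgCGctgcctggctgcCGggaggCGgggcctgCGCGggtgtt
Magi2, first start: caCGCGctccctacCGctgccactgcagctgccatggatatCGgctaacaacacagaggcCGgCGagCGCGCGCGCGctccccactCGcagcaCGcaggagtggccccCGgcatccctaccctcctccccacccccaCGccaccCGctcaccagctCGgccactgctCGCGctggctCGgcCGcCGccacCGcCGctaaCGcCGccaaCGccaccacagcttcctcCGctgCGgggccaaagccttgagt
Magi2, second start: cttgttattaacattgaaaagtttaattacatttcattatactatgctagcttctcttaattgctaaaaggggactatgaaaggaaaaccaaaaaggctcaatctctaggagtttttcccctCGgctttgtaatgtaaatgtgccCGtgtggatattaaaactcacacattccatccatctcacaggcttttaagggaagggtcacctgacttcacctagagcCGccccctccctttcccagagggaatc
The Macrod2 sequence holds 30 CG dinucleotides and that of the first Magi2 start 29, while the second Magi2 start has 3 and Lrmda 15. The median over all windows was 6. The region nearest to the Lrmda window lay 0.791 kb before it, a CHH region of 61 cytosines with 6.93% in control and 1.16% in cKO. At Macrod2 the nearest was 14.3 kb away, and at the first and second Magi2 starts 42.1 kb and 104 kb away.

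Nearly all regions inside the 7 genes were lower in cKO. Per the authors' deposited table, 290 of 294 CG regions had the lower level in cKO (98.6%), where 94.4% of all listed CG regions, 85.2% of those in protein-coding genes and 91.5% of those in other protein-coding genes of at least 551 kb were. Of 266 CHH regions 252 were lower (94.7%), against 84.0% of all listed CHH regions, 58.8% of those in protein-coding genes and 59.3% of those in the other long genes. Both CHG regions, 1 in Wwox and 1 in Lrmda, were lower, as were 75.6% of all listed CHG regions. Regions of 1 gene are not independent. Wwox, Lrmda and Rad51b, chosen for their number of regions, hold 360 of the 562 (64.1%), so these shares describe mainly those 3 genes. In the other 4 genes 112 of 116 CG regions (96.6%) and 74 of 86 CHH regions (86.0%) were lower. The latter is near the 84.0% of all listed CHH regions and above the 58.8% and 59.3% in protein-coding and other long genes. It pools unlike genes: all CHH regions of Fhit (54) and Immp2l (11) were lower, but Macrod2 had 8 lower and 8 higher, and Magi2 1 lower and 4 higher. Each of the 7 held a CG region lower in cKO (18.6% of all protein-coding genes and 73.0% of the other long ones did) and a CHH region lower (15.1% and 63.8%). For Wwox, Lrmda and Rad51b this follows largely from how they were chosen. Fhit, Immp2l, Macrod2 and Magi2, the other 4, each held both as well. 1 of the 7 held a CG region higher in cKO (7.26% and 32.4%) and 4 a CHH region higher (15.0% and 83.2%).

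The genes fell into a wide range of densities. Wwox held 141 regions, or 15.4 per 100 kb, Rad51b 82 (14.9 per 100 kb) and Lrmda 137 (13.2 per 100 kb). Fhit followed with 93 regions (5.77 per 100 kb), Immp2l with 40 (4.29) and Macrod2 with 57 (2.85), and Magi2 was lowest with 12 (0.808). Over the genome, between the first and last region of each chromosome, there were 3.83 per 100 kb. Among the 185 other protein-coding genes at least as long as Rad51b the median was 1.56 per 100 kb (quartiles 0.772 and 3.07), and 4.32% of them reached 10 per 100 kb. Of these, Sox6 (15.6 per 100 kb) was denser than each of the 7, and Zfhx3, Alk and Dock2 lay between Rad51b and Lrmda. Macrod2, the longest of the 7, lay below Fhit and Immp2l in density, and Rad51b, the shortest, was second.

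**Figure D1:**
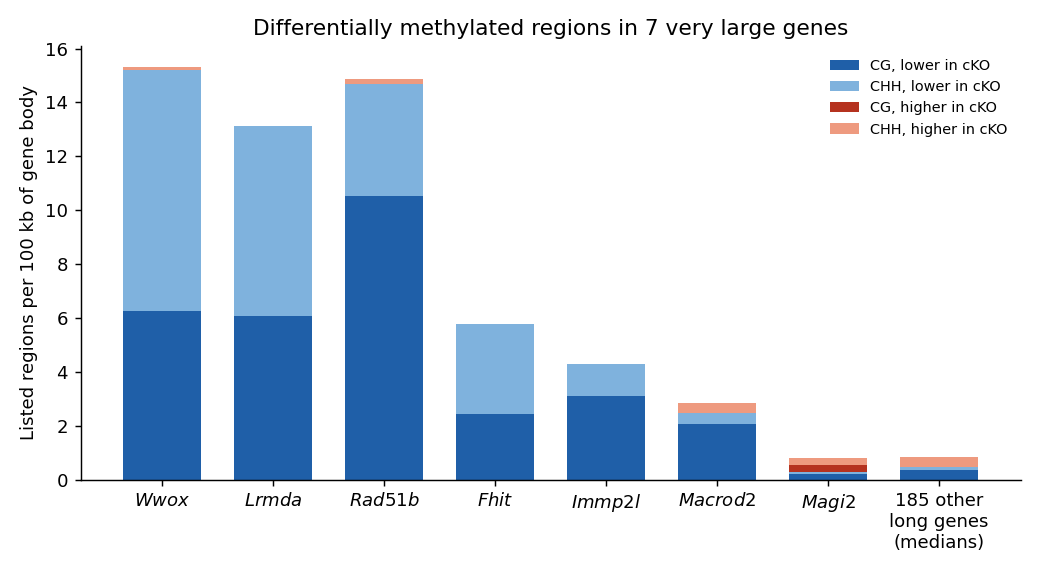
Listed regions per 100 kb of gene body (vertical axis) in each of the 7 genes, stacked by context and by direction in cKO. The last bar stacks the medians of each kind over 185 other long protein-coding genes. Its height is below their median density over all kinds, which was 1.56 per 100 kb. Wwox, Lrmda and Rad51b stand at 13.2 to 15.4 regions per 100 kb in all, and Magi2 at 0.808; the 2 CHG regions are not drawn.

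Wwox (chromosome 8, 114439635 to 115352712) carried 57 CG and 82 CHH regions lower in cKO and 1 CHH region higher. The median CG region stood at 74.5% in control against 41.5% in cKO, and the median CHH region at 6.98% against 1.34%. The strongest by the authors' area statistic, a score summed over cytosines, was a CHH region of 177 cytosines (114921598 to 114922099) at 10.5% in control and 1.84% in cKO. It ranked 38 among the 45012 CHH regions lower in cKO. The strongest CG region (115259694 to 115259965, 30 CpGs) stood at 71.9% and 42.9%, and the largest CG difference over at least 10 CpGs was 75.8% against 33.5%. The region higher in cKO lay 11.9 kb from the lower end of the gene, at 3.63% in control and 10.6% in cKO. Regions ran along the whole body: each of its 10 windows of 100 kb held some, and the widest stretch without one was 46.2 kb. CG regions numbered 17, 19 and 21 in its 3 equal parts and CHH regions 19, 32 and 31, counted from the lower coordinate.

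Lrmda (chromosome 14, 22019504 to 23056093) held 63 CG and 73 CHH regions, and each of its 137 regions was lower in cKO. The median CG level was 80.5% in control and 43.9% in cKO, and the median CHH level 5.79% and 1.19%. Its strongest CHH region (22355353 to 22356235, 297 cytosines) ranked 6 in the table among CHH regions lower in cKO, at 6.87% in control and 0.932% in cKO. A CG region of 36 CpGs overlapped it by 455 bp and stood at 83.7% and 42.9%. Both belong to the densest 50 kb of the 7 genes, with 25 regions, 15 CHH, 9 CG and 1 CHG, within 45.8 kb that begin 314 kb from the start. The CG regions there ranged from 74.5% to 88.4% in control and from 34.7% to 54.4% in cKO. The strongest CG region of Lrmda lay 55.0 kb from the start (38 CpGs, 75.2% and 36.5%). CG regions became fewer along the gene, with 30, 21 and 12 in 3 equal parts from its start, while CHH regions numbered 28, 35 and 10 and were fewest in the last.

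Rad51b (chromosome 12, 79297282 to 79848260), the shortest of the 7 at 551 kb, had the most CG regions for its length. Its 58 CG regions lower in cKO came to 10.5 per 100 kb, the highest value among the 192 protein-coding genes of that length or more. Rad51b was chosen for its number of listed regions and its length sets that limit, so the rank is a description only. By all listed regions per 100 kb it ranked 3 among the 192. The median of its CG regions lower in cKO was 76.3% for control, and for cKO 40.1%. It had 23 CHH regions lower (5.55% and 1.14%) and 1 higher (2.94% and 8.17%, 451 kb from the start). In contrast to Lrmda its CG regions lay towards the end, with 10, 13 and 35 in 3 equal parts. When the gene was cut into 10 equal parts, the first held 0 and the last 14. The 50 kb from 500 to 550 kb held 19 regions, among them the strongest CG region (79814349 to 79814846, 30 CpGs, 78.5% and 45.0%). The largest CG difference over at least 10 CpGs stood at 89.2% in control and 41.3% in cKO.

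Fhit (chromosome 14, 9550092 to 11162061, minus strand) carried 39 CG and 54 CHH regions, and all 93 were lower in cKO. Median CG levels were 78.9% in control and 46.2% in cKO and median CHH levels 5.81% and 1.17%. Its strongest CG region (10710817 to 10711927, 34 CpGs) stood at 77.4% and 38.1%. The strongest CHH region (147 cytosines, 5.74% and 1.13%) lay 7.44 kb from the end of the gene body where transcription starts. The largest CHH difference over at least 10 cytosines was 14.7% against 4.17%. With the gene cut into 10 equal parts, CHH regions were most frequent in the second, with 14, and 12 regions of both contexts fell within 49.5 kb there.

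Immp2l and Macrod2 held mainly CG regions. Immp2l (chromosome 12, 41024061 to 41955588) had 29 CG regions (median 82.8% in control, 50.3% in cKO) and 11 CHH regions (4.63%, 0.910%), all lower. Of its 40 regions 9 lay within 39.5 kb near the middle, including 1 CG region that went as low as 16.1% in cKO from 58.0% in control. Macrod2 (chromosome 2, 140395303 to 142392966) had 41 CG regions, all lower (median 71.9% in control, 37.6% in cKO). Its strongest, of 38 CpGs and 1424 bp (141156946 to 141158369), was the longest CG region of the 7 genes and stood at 71.8% and 32.1%. Its CHH regions split evenly, with 8 lower (4.77% in control, 0.700% in cKO) and 8 higher (1.56%, 5.66%). The CHH regions higher in cKO lay along the gene from 14.6 kb to 1614 kb, the largest at 4.79% in control and 11.4% in cKO.

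Magi2 (chromosome 5, 19219387 to 20704792) went the other way at most of its few regions, with 4 lower and 8 higher in cKO. The 3 CG regions lower in cKO lay 269, 389 and 584 kb from the lower end of the gene body and stood at 41.1%, 83.3% and 85.9% in control and 11.7%, 55.1% and 50.3% in cKO. The 4 CG regions higher in cKO lay between 1213 and 1427 kb, towards the end. They stood at 36.1%, 44.4%, 55.9% and 42.0% in control and 68.8%, 80.3%, 88.4% and 77.5% in cKO. The CpG-poor second start shown above, at 19907518, lies between the CG regions of either direction. All 4 differed by at least 30 points, as 15.9% of the other CG regions higher in cKO did. The 4 CHH regions higher in cKO stood at 0.602% to 2.19% in control and 4.85% to 8.39% in cKO, and the 1 lower at 5.79% and 1.03%. In Magi2 6 of 15 windows of 100 kb held no region.

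**Figure D2:**
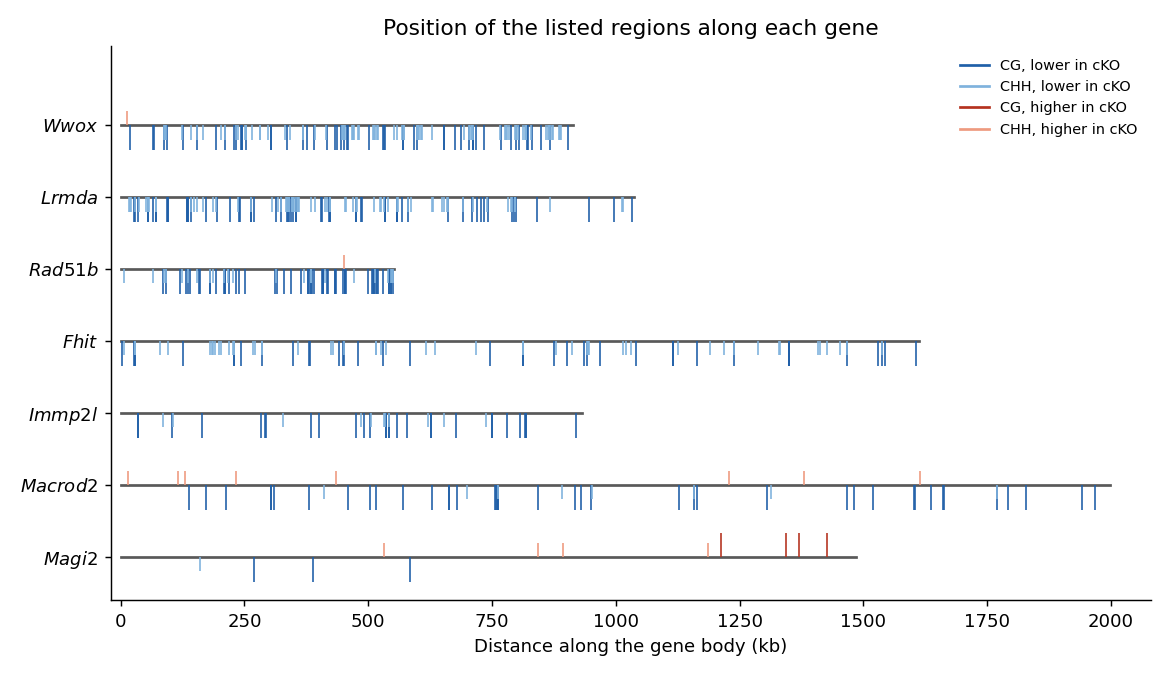
Position of each listed region along the 7 gene bodies, as distance in kb from the end of the gene body where transcription starts (horizontal axis; for Wwox from the lower coordinate); ticks below a line are regions lower in cKO and ticks above it regions higher, long for CG and short for CHH. Rad51b is most crowded towards its end, Lrmda has fewest regions towards its end, and the 4 CG ticks above the line of Magi2 lie at 1213 kb or beyond.

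The balance of contexts divided the genes. For each CG region lower in cKO there were 1.44 such CHH regions in Wwox, 1.38 in Fhit and 1.16 in Lrmda, but 0.397 in Rad51b, 0.379 in Immp2l, 0.333 in Magi2 and 0.195 in Macrod2. The ratio was 1.01 over all other regions and 0.876 over the other long genes. Of the 252 CHH regions lower in cKO 79 (31.3%) had a CG region lower in cKO within 1 kb, and 21.1% did in the other long genes. By gene this ran from 38.4% in Lrmda to 18.2% in Immp2l and 0 of 1 in Magi2. The median distance was 3.47 kb over the 7 genes, 1.83 kb in Lrmda and 12.9 kb in Fhit, and 10.5 kb in the other long genes. Only CG regions inside the same gene or set of genes were searched, and those outside were left out. In the other long genes the nearest could thus lie in another gene, up to 35910.6 kb away. CHH regions that overlapped a CG region made up 10.3% in the 7 genes and 5.96% in the other long genes, with 16 of 73 in Lrmda (21.9%) and 2 of 82 in Wwox (2.44%). Denser genes have closer neighbours by their number of regions alone, and this was not corrected for.

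The share of the control level left in cKO differed little between the 7 genes and elsewhere at the median. The CG level of a region lower in cKO was at the median 55.9% of its control level (quartiles 47.4% and 62.6%), against 56.5% in all other such regions and 57.9% in the other long genes. By gene this ran from 51.2% in Rad51b to 59.9% in Immp2l. For CHH it was 20.2% in the 7 genes, 18.7% in all other regions and 20.3% in the other long genes. Of the CHH regions lower in cKO, 101 of 252 in the 7 genes and 22025 of 44760 others stood below 1% in cKO. Errors of bisulfite conversion are unknown and could make up part of such low levels, so the CHH share is less certain than that of CG. Of the CG regions lower in cKO 203 of 290 (70.0%) differed by at least 30 points, against 56.8% of all others and 53.2% in the other long genes. The share was 79.5% in Fhit, 79.4% in Lrmda and 75.9% in Rad51b, and it was 69.0% in Immp2l, 68.3% in Macrod2, 50.9% in Wwox and 1 of 3 regions in Magi2, the last 2 below both backgrounds. The CG regions of Wwox were the densest in CpGs, with a median of 8.16 per 100 bp against 5.11 in Lrmda and 7.14 in all other regions.

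**Figure D3:**
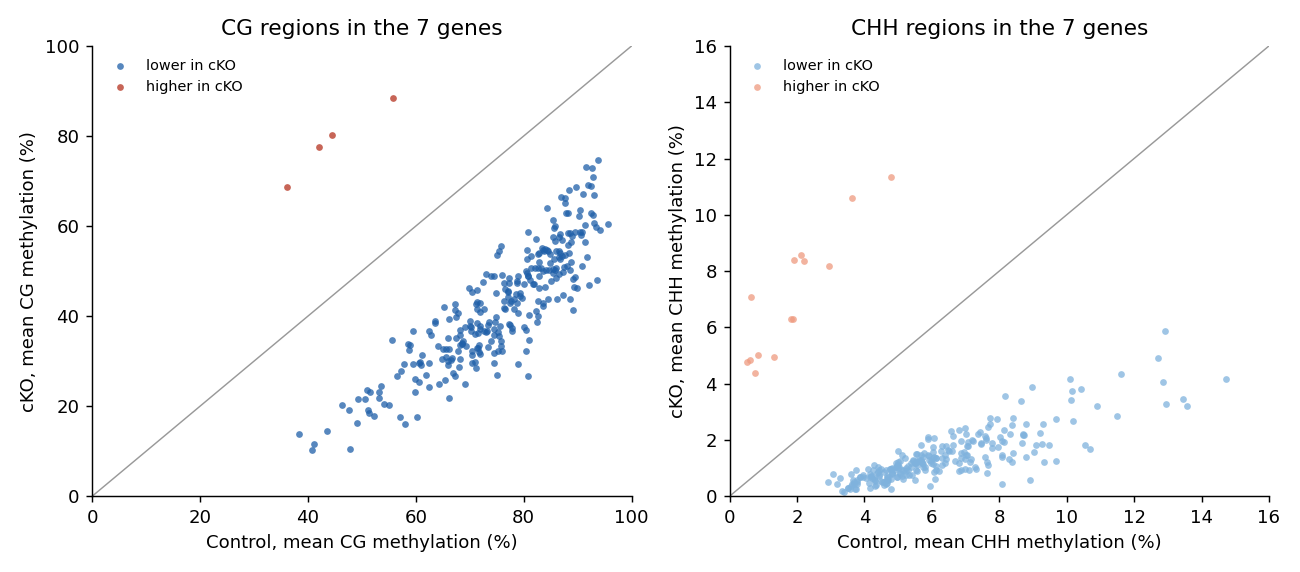
Mean methylation in control (horizontal axis, %) and in cKO (vertical axis, %) of each listed region in the 7 genes, for CG (left) and CHH (right). Points are regions at the authors' mean level of each group. Each group had 2 libraries, and how these entered the mean is not given. The grey line marks equal levels. CG regions lower in cKO run from 38.4% to 95.7% in control, and the 4 points above the line on the left are those of Magi2.

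The flanks were counted to see whether the regions stopped at the gene ends. No region straddled a gene end, but listed regions covered only 1.18% of the length of the 7 genes, so this cannot answer the question. Beside Rad51b the nearest outside lay 0.493 kb beyond the gene (a CG region, 53.2% in cKO). The nearest inside lay 1.10 kb before its end (71.9% in control, 31.7% in cKO). Other protein-coding genes overlap all flanks of 500 kb but those after Fhit and Immp2l and the one before Magi2. Kcnma1, for example, reaches into the flank after Lrmda, and Kif16b into that after Macrod2. They were not left out, so the densities outside include regions inside other genes. In the 500 kb on either side of Wwox CG regions lower in cKO came to 1.6 and 1.4 per 100 kb, against 6.24 inside. CHH regions lower in cKO came to 6.6 and 9.0 beside it and 8.98 inside. CHH regions were thus about as dense after Wwox as in it, and CG regions less dense on both sides. Around Lrmda both contexts were denser inside, with 2.4 and 0.80 CG and 2.2 and 1.2 CHH regions per 100 kb before and after the gene and 6.08 and 7.04 inside. Around Rad51b there were 0.40 CG regions lower in cKO per 100 kb before its start and 6.2 after its end, against 10.5 inside. The first of 10 equal parts of the gene held 0 of them, so the stretch sparse in CG regions ran on past the start. Past the end, 13 regions lay in the first 50 kb.

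Beside the other 4 genes the picture differed. Immp2l had 3.11 CG regions lower in cKO per 100 kb inside and 0.80 and 0.60 outside. Fhit had 2.42 inside, 2.6 before its start and 1.4 after its end, and for CHH 3.35 inside, 5.0 and 3.6 outside. Macrod2 had 2.05 CG regions inside and 2.0 and 1.8 outside, with 9 and 6 CHH regions higher in cKO in its flanks. Kif16b, which overlaps the flank after Macrod2, itself held 6 CHH regions higher in cKO. Magi2 had 0.202 CG regions lower in cKO per 100 kb inside and before it 0.20, but 2.8 after it. Within Macrod2 and Immp2l lie the protein-coding genes Flrt3 and Lrrn3, both of cell surface proteins with leucine-rich repeats, and neither overlapped a listed region.

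**Figure D4:**
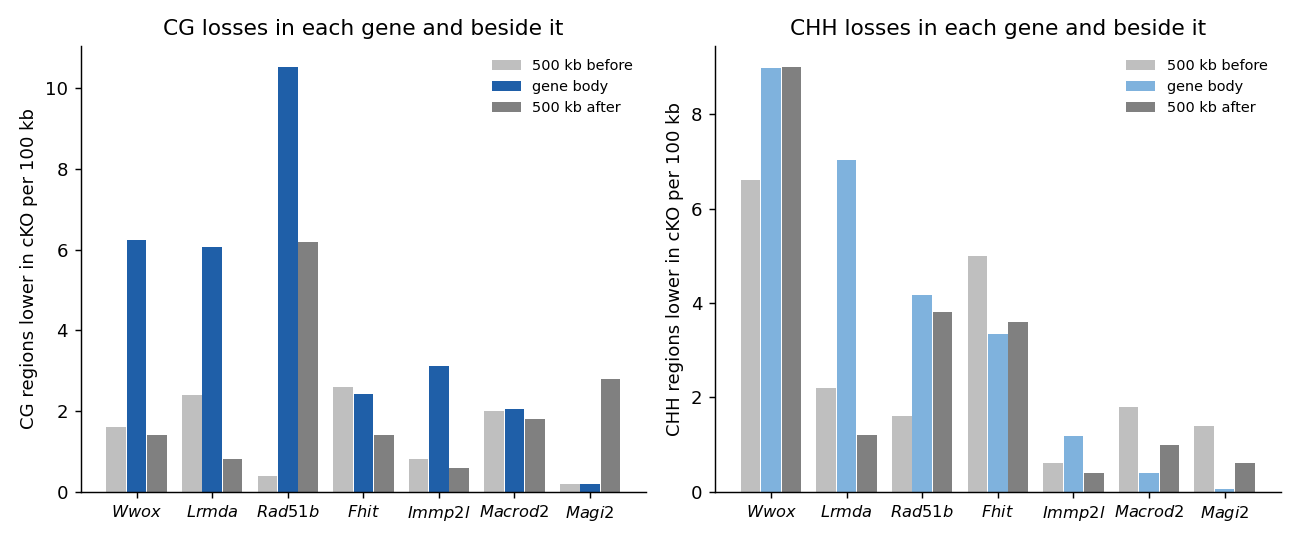
Regions lower in cKO per 100 kb (vertical axis) in the 500 kb before each gene (light grey), in the gene body (blue) and in the 500 kb after it (dark grey), for CG (left) and CHH (right); for Wwox before means lower coordinates. CG bars of Wwox, Lrmda and Immp2l stand well above both flanks, that of Rad51b (10.5) stands far above the flank before it and less so above the one after it (6.2), that of Fhit (2.42) lies below a flank of 2.6, and the CHH bar of Wwox (8.98) stands beside a flank of 9.0.

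Other very large genes of this kind were taken from a list of 30 genes at or near human common fragile sites or of like size. They had a median of 1.60 regions per 100 kb (0.291 to 7.94), and 16 had more regions lower than higher in cKO and 14 the reverse. Among the 185 other long genes 92 (49.7%) were mostly lower, so the list was near that share. The densest were Tenm3, a teneurin (7.94 per 100 kb), the polarity gene Pard3b (7.27, with 73 regions lower and 0 higher), Sdk1, a sidekick adhesion protein (6.88), and Cdh13, T-cadherin (6.41). Among the sparsest were Il1rapl1 (0.291), Dmd, the dystrophin gene (0.335), and Dlg2, a synaptic scaffold gene (0.456), with 1, 1 and 3 regions lower and 3, 7 and 6 higher. Both directions thus occurred among very large genes of this kind.

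By the numbers of regions per 100 kb in CG and CHH and in each direction, the long genes near the median of the 7 included Nckap5, Esrrg, Hpse2 and Sdk1 (Euclidean distances of 0.529, 0.727, 0.731 and 0.853, each axis divided by its standard deviation over the 192 genes). Nckap5 had 7.74 regions per 100 kb, Esrrg 4.62 and Hpse2 4.65. Fhit was the member nearest to that median (0.453), and Rad51b the farthest (4.44). The median is taken over the members themselves, and for CHH regions lower in cKO it is the value of Fhit (3.35 per 100 kb). The closeness of Fhit is thus partly given by construction.

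**Figure D5:**
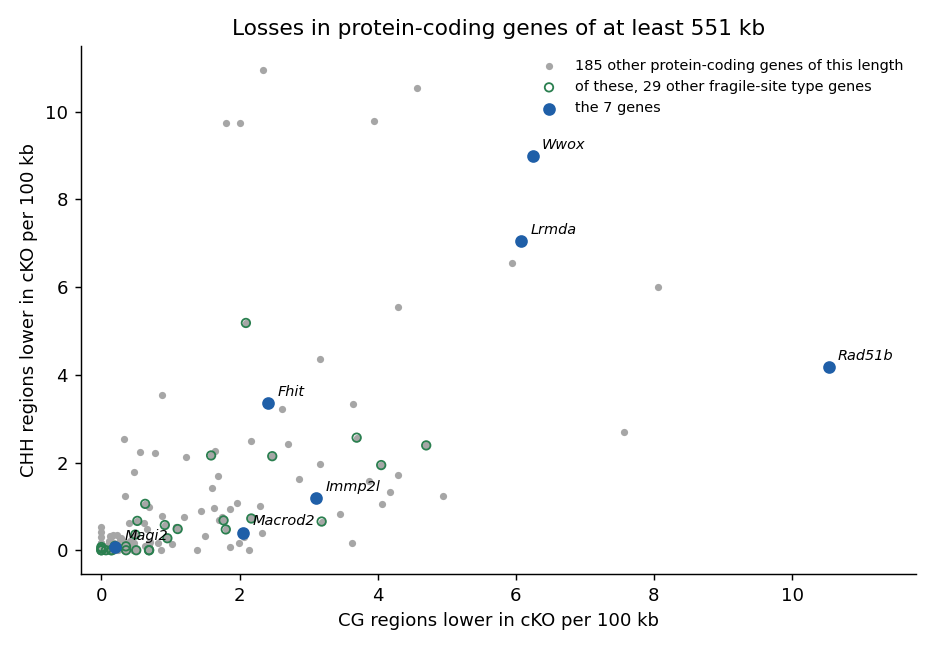
CG regions lower in cKO per 100 kb (horizontal axis) against CHH regions lower in cKO per 100 kb (vertical axis) in protein-coding genes of at least 551 kb; each point is a gene, blue for the 7 genes, green rings for 29 other fragile-site type genes of this length. Rad51b lies farthest right at 10.5, Wwox and Lrmda are high on both axes, and Magi2 lies near the origin with most genes.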

How the data were processed

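Whole-genome bisulfite libraries of cKO and control (n = 2 each) entered 1 table of regions. Per the labels' protocols, DNA was sheared, treated with bisulfite and amplified. CASAVA, Bowtie2 and the build mm10 are named in the submitters' processing notes. How regions were called, and with which thresholds and replicates, is not given in the sources used here. The authors deposited each group's mean methylation as a fraction, printed here as percent, and an area statistic, a score used only to rank and filter regions. Per the file headers, no column holds a single library, so neither depth nor spread is known, nor errors of bisulfite conversion.

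Regions were joined to RefSeq gene bodies (GRCm38.p6) with Python 3.11.15 and pandas 2.3.3; entries that start within 3 Mb of a chromosome's beginning (Y aside) lie on scaffolds and were dropped, which left 21779 protein-coding genes. The overlap counting was tested on simulated data. Strand came from the promoter table. Exons were not analysed here. The members and gene lists were chosen with earlier results of these data known. Named were the 7 genes, their strongest regions by area statistic and by difference over at least 10 cytosines, the 5 long genes of nearest profile, the 4 densest and 4 sparsest of the list of 30, and genes nested in a member; some genes that these rules name are not reported here. The densest window of 50 kb, the neighbours and the other long genes denser than Lrmda were picked after seeing the values. Alternatives changed the overlap, the thresholds, the merging of neighbours and the gene limits.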

Additional observations from a re-analysis of the deposited data

How the results depend on the processing

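The order of the 7 genes by CG and CHH regions lower in cKO per 100 kb kept Fhit, Immp2l, Macrod2 and Magi2 in places 4 to 7 under all 7 settings tried, while Wwox, Rad51b and Lrmda changed places among themselves under 2. Requiring the whole region inside the gene, or leaving out regions in another protein-coding gene, removed no region and could not change the order. Extending the gene body by 5 kb hardly changed the counts, with 291 CG and 253 CHH regions lower instead of 290 and 252. The share of regions lower in cKO ran from 98.1% to 98.6% in CG and from 93.2% to 96.0% in CHH. Counts moved by over 1.5 times where regions were filtered. With a difference of at least 30 points in CG or 5 points outside CG, 96 CHH regions were lower and 7 higher, and the median density over the genes was 3.10 per 100 kb instead of 5.77. With an area statistic at or above the median of its context, 138 CG regions were lower and 2 higher, 121 CHH regions lower and 5 higher, and the median density was 2.36. With at least 10 cytosines in CG or 30 outside CG, 131 CG regions were lower and 2 higher, and the median density was 3.41. These filters leave fewer regions by construction. No paired analysis was possible because the table holds group means only, and leaving out a replicate was not run for the same reason.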

Other observations

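The nearest protein-coding genes beside the 7 held between 0 and 13 listed regions of their own. Maf, a transcription factor gene 351 kb beyond Wwox, Zfp36l1, 260 kb beyond Rad51b, and Zfyve26, 0.959 kb before Rad51b, overlapped 0. Kcnma1, a potassium channel gene 236 kb beyond Lrmda, had 7 regions (0.982 per 100 kb), 6 of them higher in cKO, 3 in CG and 3 in CHH. Ptprg, a receptor phosphatase gene 391 kb from the start of Fhit, had 13 (1.89 per 100 kb), with 7 CG regions lower and 1 higher and 1 CHH region lower and 4 higher. Kif16b, a kinesin gene beyond Macrod2, had 6 CHH regions, all higher in cKO, while Sel1l2, 5.59 kb before Macrod2, had 9 CG and 4 CHH regions, all lower. These neighbours were described after the values of the 7 genes were seen.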
